A study of Mus musculus with 6 samples.

Results

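Proliferating classical monocytes of the mouse skull marrow, 2595 of 37576 cells that passed the quality limits (6.91%), are described here across 3 ages and 2 sites. A cell was kept with 500 to 5000 detected genes, more than 500 unique molecular identifiers (UMIs, each standing for 1 captured RNA molecule) and under 25% of UMIs from mitochondrially encoded genes. Classical monocytes were the 6170 kept cells with at least 3 UMIs of Ly6c2, at least 1 UMI of Ccr2, fewer than 10 UMIs of Mpo and under 2% of UMIs from S100a8 and S100a9 together. The proliferating ones held at least 2 UMIs of Mki67 and Top2a in sum, and 2937 classical monocytes with 0 such UMIs served as the non-cycling cells they are described against. A further 638 classical monocytes with exactly 1 such UMI were placed in neither group. The cells were thus chosen by measured UMIs, and the levels of those 7 genes in the chosen cells are a consequence of the choice.

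Classical monocytes arise in bone marrow from granulocyte-monocyte progenitors through dividing precursors, and leave it for the blood by the chemokine receptor Ccr2. They carry the surface protein encoded by Ly6c2, and a dividing precursor differs from a resting monocyte in the genes of DNA replication and mitosis and in the histones that package newly made DNA. Monocytes are also strong responders to interferons, whose signal reaches the nucleus and switches on a shared set of antiviral genes. Skull marrow lies in small cavities of the calvaria, some of them beside the sutures where the bones meet.

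Cells came from wild-type C57BL/6 mice aged 2 (02m), 12 (12m) and 18 months (18m), untreated and stated to be male, with 6 to 8 mice in each age group pooled. Each age gave a library of marrow adjacent to the sagittal suture with the neighbouring parietal bone (CBMA) and a library of parietal bone distant from sutures (CBMD), so that every condition is 1 droplet library and none is replicated. Dura mater and periosteum were removed, the bone was digested with collagenases and dispase, red cells were lysed and dead cells depleted. Whether the libraries of an age came from the same mice is not given in the sources used here, so a like result in both sites cannot be read as an independent repeat. Differences between ages are differences between libraries: no test across animals was possible, and the 95% intervals given (exact, Clopper-Pearson for shares and Poisson for ratios of counts) cover counting error only.

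The libraries of 02m, 12m and 18m, the order used throughout, held 9749, 3280 and 8350 barcodes (CBMA) and 8943, 5356 and 7742 barcodes (CBMD). The limits were passed by 8580, 2718 and 7232 cells (CBMA) and 7956, 4464 and 6626 cells (CBMD). The 12m libraries stood apart from their label. Xist, the RNA that coats the silenced X of female cells, was held by 69.6% and 63.2% of the proliferating monocytes of CBMA and CBMD at 12m, against 0.186% to 0.727% in the other 4 libraries, and a UMI of a Y-linked gene by 31.6% and 34.2% against 58.7% to 78.9%. Leaving out the cells that hold an Xist UMI left 24 and 28 proliferating monocytes at 12m. Shares and the medians of several lists at 12m are given both ways, and single genes at 12m include these cells unless stated. Of all barcodes, 208 occurred in more than 1 library, none of them a proliferating monocyte. By rank of a doublet score, 116 proliferating monocytes (4.47%) were marked and kept; the automatic threshold of the same caller marked 4.

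The 2595 cells were 1075, 79 and 247 (CBMA) and 843, 76 and 275 (CBMD). Their median depth was 13700, 10660 and 14954 UMIs (CBMA) and 14395, 13969 and 15281 UMIs (CBMD), and their summed profiles held 14791602, 869572 and 3575082 UMIs (CBMA) and 11909526, 1018592 and 3950850 UMIs (CBMD). The 12m profiles were the smallest of each site, and their intervals are wider. Levels below are UMIs of a gene per 1000000 UMIs (CPM) of such a summed profile.

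The genes of the choice are given as levels. Ly6c2 stood at 3171, 2482 and 2350 CPM (CBMA) and 2746, 2547 and 2246 CPM (CBMD). Ccr2 stood at 538, 964 and 939.8 CPM (CBMA) and 616, 745 and 878 CPM (CBMD). Mki67, a protein of the mitotic chromosome surface used as the standard proliferation marker, reached 657, 765 and 942 CPM (CBMA) and 675, 699 and 1132 CPM (CBMD), and Top2a, the topoisomerase that untangles replicated DNA, 605, 869 and 838 CPM (CBMA) and 643, 768 and 912 CPM (CBMD). Both cycling genes had their 18m levels above their 02m levels in each site. The cells were chosen by these genes, and the gene limit removed a larger share of them at 18m than at 02m. The levels are therefore not read as a change with age. Mpo, the granule peroxidase that marks the earlier progenitors, lay between 44.4 and 207 CPM. CBMA 12m stood apart in it: 12.7% of its proliferating monocytes held 0 Mpo UMIs, against 48.7% to 65.8% in the other libraries. Close to the thresholds, 55 cells were inside with 3 Ly6c2 UMIs and 83 outside with 2, 184 were inside with 1 Ccr2 UMI and 177 outside with 0, and 220 were inside with 2 cycling UMIs and 638 outside with 1. For Mpo, 64 cells were inside with 7 to 9 UMIs and 20 outside with 10 to 12, and for the S100a8 and S100a9 share 28 were inside with 1.5% to 2% and 21 outside with 2% to 2.5%.

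Mature neutrophils, in which cell-cycle RNA should be low, were counted by the same thresholds for comparison. Free RNA in the droplets, doublets and RNA of the neutrophils themselves were not separated in these counts. Among 11534 of them with library medians of 3238 to 3755 UMIs, 16.2% to 35.5% per library held 3 or more Ly6c2 UMIs, 2.92% to 12.2% a Ccr2 UMI and 0.970% to 5.02% at least 2 cycling UMIs. All 3 thresholds together were met by 25 of these neutrophils. The neutrophils were shallower than the monocytes. With both thinned to 2000 UMIs, at least 2 cycling UMIs were held by 0.491 to 2.01% of the neutrophils and 13.9 to 31.8% of the classical monocytes of a library.

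Marker lists of other cell types differed in level, and those of granulocyte-monocyte progenitors and of B and plasma cells reached the highest sums among them. The classical-monocyte marker list summed to 9275 to 10641 CPM. It holds Ly6c2 and Ccr2, by which the cells were chosen, so part of this sum is a consequence of the choice. The granulocyte-monocyte progenitor list summed to 1252, 948 and 637 CPM (CBMA) and 859, 485 and 611 CPM (CBMD). The neutrophil list summed to 344, 883 and 413 CPM (CBMA) and 306, 445 and 298 CPM (CBMD). The dendritic-cell list summed to 121 to 270.2 CPM, the macrophage list to 25.6 to 73.3 CPM, and Ly6g, the defining surface gene of neutrophils, to 0.839 to 2.35 CPM. Other genes of the neutrophil list stood higher, with Mmp8 at 110 to 180 CPM and Camp at 8.35 to 260 CPM. In lists whose sums are not given, Bst2 (plasmacytoid dendritic cells) reached 520 CPM at CBMA 02m and Nr4a1 (nonclassical monocytes) 522 CPM at CBMD 12m. The B and plasma cell list exceeded these other cell types in some libraries, at 600.0, 9552 and 5865 CPM (CBMA) and 280.2, 18523 and 1368 CPM (CBMD). That sum came from few cells: 2, 2 and 4 proliferating monocytes of CBMA and 1, 2 and 1 of CBMD drew 1% or more of their UMIs from the list, and in each library 1 cell held 69 to 95.5% of all UMIs of Igkc, an antibody light chain. The part of such cells in the results was not tested beyond leaving them out, which is given where it changed a value.

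The upper limit of 5000 genes fell on many cells that met the thresholds for dividing monocytes. It removed 1587 cells of the series that passed the other limits, of which 629 (39.6%) met every threshold for proliferating classical monocytes. These were 19.5% of all cells meeting the thresholds. By library these were 198, 35 and 129 cells (CBMA) and 133, 38 and 96 cells (CBMD). Of the cells meeting the thresholds they made up 15.6%, 30.7% and 34.3% (CBMA) and 13.6%, 33.3% and 25.9% (CBMD). The share removed was thus larger at 12m and 18m than at 02m in both sites. The removed cells were not scored for doublets, which was done only on cells within the limits, so doublets among them were not counted. They had median depths of 23906 to 28660.5 UMIs per library, against 10660 to 15281 UMIs in the kept cells, and medians of 5327 to 5557 genes. Their median count of Mki67 and Top2a UMIs was 37, 49 and 59 (CBMA) and 42, 45 and 63 (CBMD), against 14, 12 and 23 (CBMA) and 16, 17.5 and 26 (CBMD) in the kept cells. As a share of UMIs, the removed cells held 1.08 to 1.32 times as much RNA of the mitosis list per library, and 0.776 to 0.927 times as much RNA of interferon-stimulated genes. The numbers of cells passed through the limit without a break, with 584 kept cells in the last 500 genes below it and 374 removed ones in the first 500 above it.

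**Figure D1:**
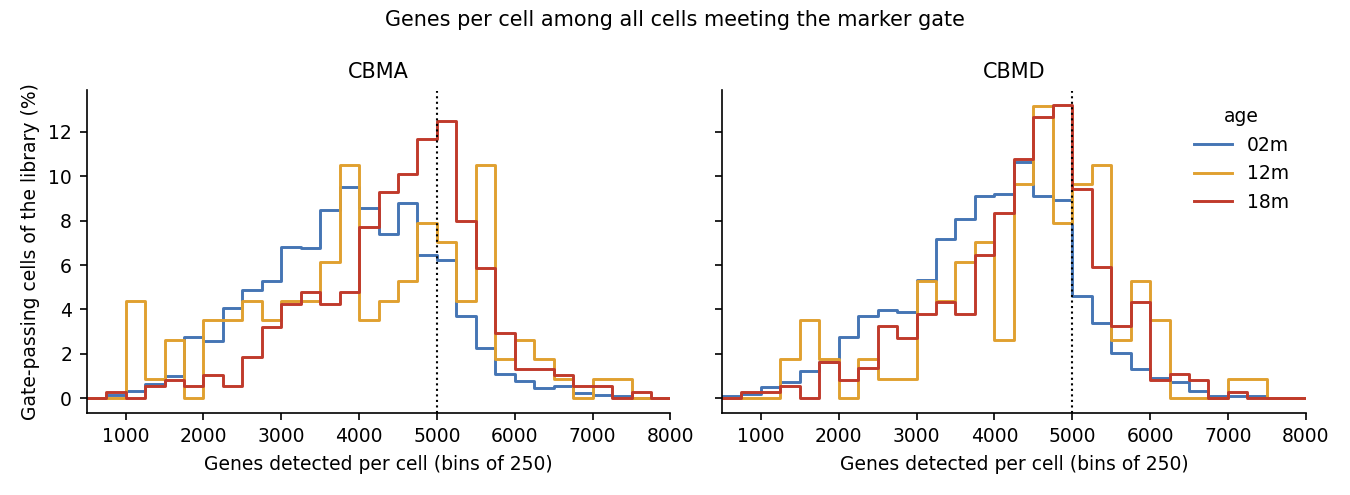
Cells meeting the marker thresholds for proliferating classical monocytes, with and without the gene limit, by number of detected genes (horizontal axis, bins of 250) as a percent of such cells of the library (vertical axis), left CBMA and right CBMD with 1 line per age. The dotted line is the limit of 5000 genes. The distributions run across the limit in all 6 libraries, and the part beyond it is 15.6% of the cells in CBMA 02m and 34.3% in CBMA 18m.

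Proliferating classical monocytes made up a smaller share of all cells at 12m and 18m than at 02m in both sites. In CBMA they were 12.5% (11.8 to 13.2) of cells at 02m, 2.91% (2.31 to 3.61) at 12m and 3.42% (3.01 to 3.86) at 18m. In CBMD they were 10.6% (9.93 to 11.3), 1.7% (1.34 to 2.13) and 4.15% (3.68 to 4.66). The 18m share was 0.273 (0.236 to 0.313) of the 02m share in CBMA and 0.392 (0.341 to 0.449) in CBMD. The 12m share was 0.232 (0.182 to 0.292) and 0.161 (0.125 to 0.203) of it, or 0.113 (0.0722 to 0.169) and 0.102 (0.0675 to 0.149) without the Xist-bearing cells, and 0.445 (0.31 to 0.623) in CBMA with every cell thinned to 2000 UMIs. From 12m to 18m the ratio in CBMA was 1.18 (0.909 to 1.53), with an interval that holds 1. It was 2.41 (1.58 to 3.83) without the Xist-bearing cells, 1.58 (1.16 to 2.18) with fewer than 3 Mpo UMIs and 0.713 (0.484 to 1.07) at 2000 UMIs, so the direction from 12m to 18m in CBMA turned with the setting. In CBMD it was 2.44 (1.88 to 3.19), and 3.83 (2.59 to 5.87) without the Xist-bearing cells. The comparisons of 12m and of 18m with 02m share the 02m library of their site, and a share of captured cells depends on every other cell type in the library as well.

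Within the classical monocytes the cycling share was also lower than at 02m. It was 48.9% (46.8 to 51), 31.5% (25.8 to 37.6) and 29.3% (26.2 to 32.5) for CBMA, against 49.3% (46.9 to 51.7), 22.2% (17.9 to 27) and 33.3% (30.1 to 36.7) in CBMD. The ratio of 18m to 02m was 0.599 (0.52 to 0.689) in CBMA and 0.676 (0.588 to 0.776) in CBMD. At 02m the sites lay close together, and at 12m CBMD lay below CBMA.

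The size of this decline moved with depth and with the gene limit, and at 2000 UMIs its direction was not kept in every comparison. Without the upper limit the cycling shares were 53.1%, 39.7% and 38.7% (CBMA) and 53%, 29.8% and 40.3% (CBMD), and the 18m to 02m ratios 0.728 (0.648 to 0.818) and 0.761 (0.673 to 0.858). With every cell thinned to 5000 UMIs, which left out shallower cells, they were 43.8%, 27.2% and 27.1% (CBMA) and 43.7%, 20.8% and 31.7% (CBMD). With every cell thinned to 2000 UMIs and all thresholds applied again, they were 26.6%, 27.7% and 23.2% (CBMA) and 29.9%, 18.8% and 30.9% (CBMD), and the ratio of 18m to 02m was 0.87 (0.685 to 1.09) in CBMA and 1.03 (0.833 to 1.28) in CBMD, both with intervals that hold 1. Where the classical monocytes were those of the full counts and only the cycling count was thinned to 2000 UMIs, the shares were 28.9%, 20.9% and 19% for CBMA and 31.8%, 13.9% and 24.8% for CBMD, lower at 12m and 18m than at 02m in each site. Left without their Xist-bearing cells, the 12m libraries had cycling shares of 25.8% and 22.6%, and proliferating monocytes were 1.42% and 1.08% of cells.

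**Figure D2:**
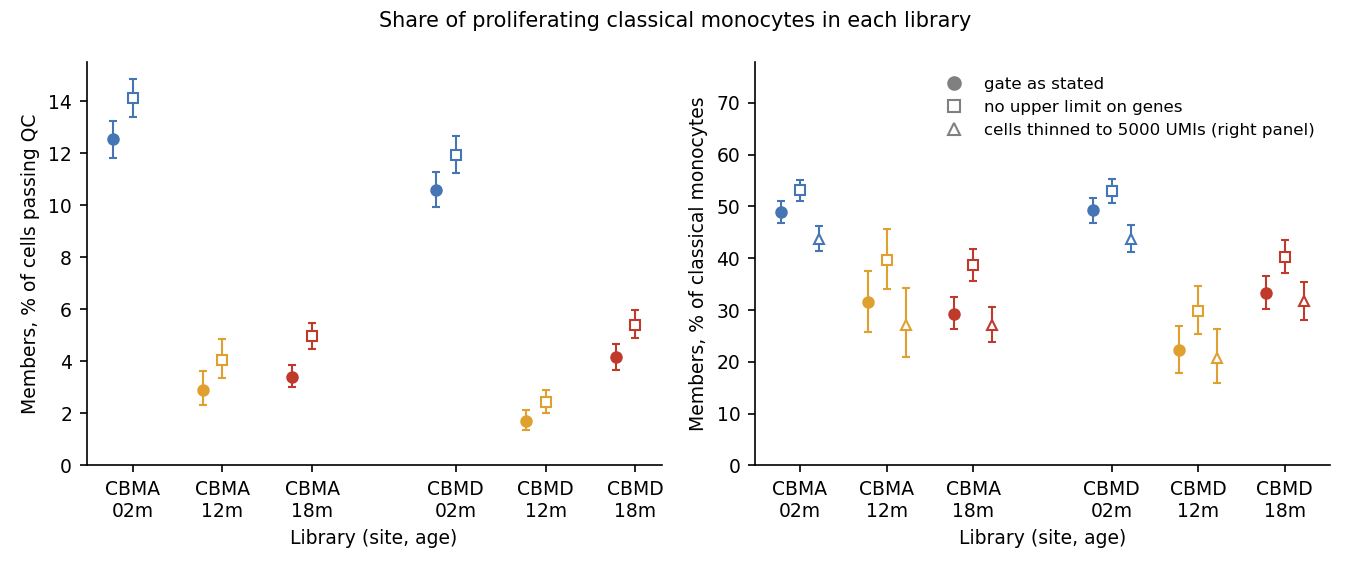
Left, proliferating classical monocytes as a percent of all cells passing the limits; right, as a percent of classical monocytes, for CBMA and CBMD at 02m, 12m and 18m (horizontal axis), with exact 95% binomial intervals. Circles are the thresholds as stated, squares the same without the 5000-gene limit and, in the right panel, triangles the cells thinned to 5000 UMIs; under each of these settings the 12m and 18m points lie below 02m in both sites.

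Against the non-cycling classical monocytes of the same library, the proliferating ones differed most in mitotic genes. This is a description, since the cells were separated by cycling genes. Of 4313 genes measured in all 6 libraries, the 10 that stood highest in the library where their ratio was lowest were Cit, Tpx2, Knl1, Asf1b, Hmmr, Nusap1, Ncapg, Ccna2, Cdk1 and Hist1h2ab. Cit, the citron kinase of cytokinesis, stood at 97.6, 147 and 132 CPM (CBMA) and 100.4, 134 and 149 CPM (CBMD) in the proliferating cells, and its log2 ratio to the non-cycling ones was at least 5.42 in every library. Cdk1, the kinase that drives entry into mitosis, stood at 199, 145 and 169 CPM (CBMA) and 186, 147 and 164 CPM (CBMD), with a log2 ratio of at least 4.78. The summed mitosis list was 5.54 to 7.06 times higher in the proliferating cells over the 6 libraries and the list of origin licensing and replication fork genes 4.37 to 5.01 times. Genes of 2 cell-cycle stages that the thresholds did not name were thus higher along with Mki67 and Top2a at every age.

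The 10 genes that lay furthest below the non-cycling level were Apoe, Sirpb1c, Pla2g7, Slfn5, Gngt2, Hpgd, Clec4a3, Cd300c2, Nxpe4 and Gm9733, among them a lipid carrier (Apoe) and inhibitory or activating surface receptors (Clec4a3, Cd300c2). Apoe stood at 60.0, 167 and 282 CPM (CBMA) and 69.5, 75.6 and 138 CPM (CBMD) in the proliferating monocytes and at 808, 1161 and 2033 CPM (CBMA) and 1014, 1073 and 1527 CPM (CBMD) in the non-cycling ones. Interferon-stimulated genes summed to 0.493 to 0.664 of their non-cycling level, pattern recognition receptors to 0.487 to 0.645, immediate-early genes to 0.584 to 0.721 and class II antigen presentation genes to 0.203 to 0.576. The 13 protein-coding genes of the mitochondrial genome lay above in sum, at 1.26 to 1.49 times, as did nuclear genes of oxidative phosphorylation at 1.1 to 1.24 times. All mitochondrial transcripts together, ribosomal RNAs included, did not follow: their median share per cell was 2.02%, 1.88% and 2.43% (CBMA) and 2.0%, 1.78% and 2.62% (CBMD) in the proliferating cells against 2.39%, 1.61% and 2.59% (CBMA) and 2.27%, 1.67% and 3.13% (CBMD) in the non-cycling ones, lower in the proliferating cells at 02m and 18m and higher at 12m. Progenitor genes went both ways. The short marker list of granulocyte-monocyte progenitors (Elane, Prtn3, Ctsg and others) summed to 2.65 to 7.02 times the non-cycling level over the 6 libraries. The longer list of azurophil granule and progenitor genes, which shares several of these and adds abundant genes such as Lyz2, the lysozyme of monocytes and macrophages, summed to 0.596 to 0.74 of its non-cycling level.

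Promoters of mitotic genes are known for a short element, the cell-cycle homology region (CHR, TTTGAA), through which they are held down outside mitosis. The 250 bases before the start are shown for 3 mitosis-list genes that stood high in these cells, chosen because they hold a match. They were taken from RefSeq on GRCm38.p6 and are written 5′ to 3′ in the direction of transcription. Matches to TTTGAA on either strand are in capitals.
Ncapg, chr5:45669675-45669924, plus strand: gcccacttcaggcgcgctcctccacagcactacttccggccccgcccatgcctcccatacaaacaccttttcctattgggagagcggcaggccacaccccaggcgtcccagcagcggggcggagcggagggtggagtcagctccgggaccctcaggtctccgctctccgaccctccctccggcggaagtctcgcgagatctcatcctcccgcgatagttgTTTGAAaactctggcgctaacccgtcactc
Cdk1, chr10:69352913-69353162, minus strand: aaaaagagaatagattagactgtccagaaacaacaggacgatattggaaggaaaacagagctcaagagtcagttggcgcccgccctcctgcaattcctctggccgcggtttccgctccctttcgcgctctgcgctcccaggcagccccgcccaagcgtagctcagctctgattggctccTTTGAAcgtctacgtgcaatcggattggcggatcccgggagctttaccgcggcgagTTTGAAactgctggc
Kif11, chr19:37376132-37376381, plus strand: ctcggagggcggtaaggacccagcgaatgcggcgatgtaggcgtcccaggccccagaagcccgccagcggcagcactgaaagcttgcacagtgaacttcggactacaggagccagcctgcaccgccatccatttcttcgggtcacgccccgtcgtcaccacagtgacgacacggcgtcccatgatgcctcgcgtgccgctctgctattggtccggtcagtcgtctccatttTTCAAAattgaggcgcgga
Ncapg encodes a condensin subunit that compacts chromosomes and Kif11 the motor that separates the spindle poles. Over windows from 250 bases before to 50 after the start, 37 of the 58 mitosis-list promoters found held TTTGAA on either strand (63.8%), against 18.1% of all 27025 promoters. The CCAAT box was held by 75.9% against 37.9%. For the replication list, TTTCCCGC or TTTGGCGC, forms of the E2F site, were held by 12 of 32 promoters (37.5%), against 1.63%. Matches may overlap and are matches of letters only.

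Between 18m and 02m, 8284 genes of the proliferating monocytes were measured in CBMA, which means that at least 30 UMIs were expected in each of the libraries at the pooled level, and 8655 in CBMD. In CBMA 1488 genes (18.0%) were at least 1.5-fold higher at 18m and 518 (6.25%) at least 1.5-fold lower. In CBMD 1429 (16.5%) were higher and 630 (7.28%) lower. The median gene lay 0.16 above 0 on the log2 scale in each site, so that CPM differences near that size are shared by most genes. Scaled to the median gene, 865 genes were higher and 928 lower in CBMA (48.2% of those past the fold were higher, 74.2% by CPM), and 817 and 1053 in CBMD (43.7%, against 69.4%). With 1 library per condition these percentages are the background against which each gene group below is read, and "higher" or "lower" below means at least 1.5-fold apart in CPM. Of 8198 genes measured in both sites, 789 were higher in both (53.3% of the genes higher in CBMA and 62.0% of those in CBMD), 312 were lower in both (63.0% and 56.2%) and 11 went opposite ways.

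**Figure D3:**
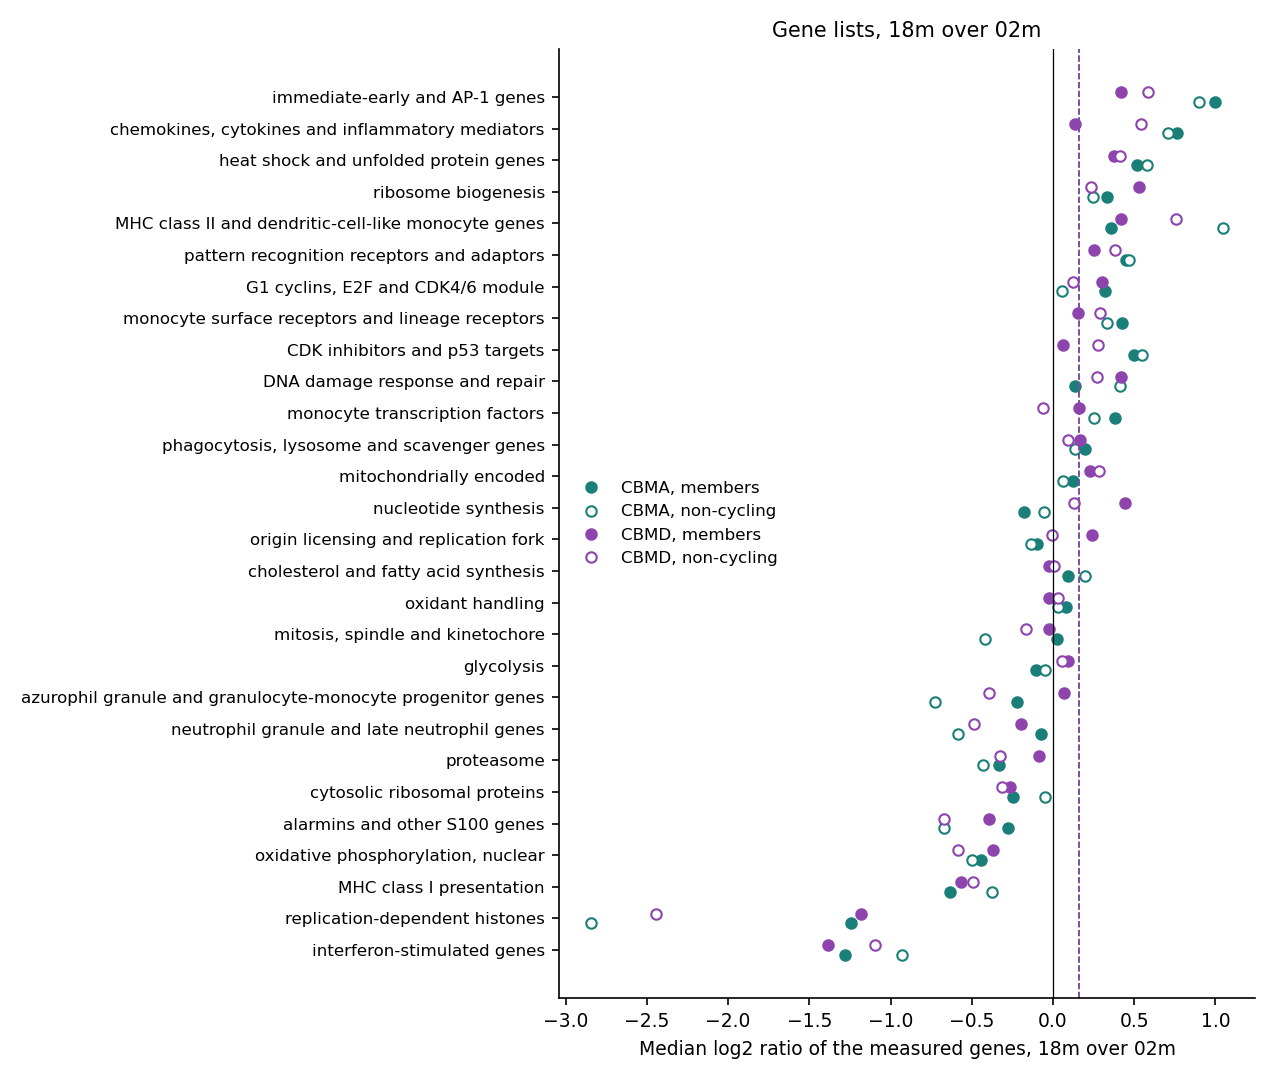
Median log2 ratio of 18m to 02m (horizontal axis) over the measured genes of each list in proliferating classical monocytes, for CBMA and CBMD, with non-cycling classical monocytes as open circles. Dashed lines mark the median of all measured genes in each site and fall together. Among the filled circles (members), interferon-stimulated genes and replication-dependent histones lie farthest to the left, at -1.28 and -1.25 in CBMA, and immediate-early genes farthest to the right in CBMA, at 1.00.

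Interferon-stimulated genes had the lowest median of all lists at 18m in both sites. Of 67 measured in CBMA, 55 were lower and 1 higher, with a median log2 ratio of -1.28. Of 66 in CBMD, 49 were lower and 0 higher, with a median of -1.39. The median of all genes was 0.16 in each site. In the non-cycling monocytes of the same libraries the list's medians were -0.93 and -1.09. As a share of each cell's UMIs the list took a median of 1.78%, 0.682% and 0.63% for CBMA, against 1.54%, 0.592% and 0.556% in CBMD. The middle part of the cells did not overlap between 02m and 18m: the lower quartile was 1.25% at CBMA 02m and the upper quartile 0.898% at CBMA 18m, with 1.12% and 0.735% in CBMD.

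The named members show how far the levels went. Isg15, a ubiquitin-like protein attached to other proteins after interferon, stood at 239, 55.2 and 15.9 CPM (CBMA) and 161, 24.5 and 12.2 CPM (CBMD). Its 18m to 02m ratio was 0.0667 (0.0504 to 0.0866) in CBMA and 0.0755 (0.0555 to 0.101) in CBMD. Both 12m values lay between those of 02m and 18m. Oasl2, of the oligoadenylate synthetase family that senses double-stranded RNA, stood at 125, 28.8 and 9.23 CPM (CBMA) and 99.2, 12.8 and 5.82 CPM (CBMD), with ratios of 0.074 (0.0508 to 0.104) and 0.0587 (0.0371 to 0.0885). Rtp4, an interferon-induced receptor transporter protein, stood at 59.9, 10.3 and 2.8 CPM (CBMA) and 46.1, 6.87 and 2.02 CPM (CBMD), with ratios of 0.0467 (0.0223 to 0.0863) and 0.0439 (0.0189 to 0.0872). All 3 genes had the order 02m, 12m, 18m from high to low in each site. Without the Xist-bearing cells the 12m levels stayed below 02m but the order of 12m and 18m was lost in part, with Isg15 at 15.1 and 7.47 CPM (4 and 3 UMIs) and 2 UMIs of Oasl2 and 0 of Rtp4 left in CBMD.

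Several members were nearly lost at 18m. Ifi213, of the family of interferon-inducible DNA sensors, gave 841, 4 and 10 UMIs (CBMA) and 644, 10 and 5 UMIs (CBMD), a ratio of 0.0492 (0.0235 to 0.0909) in CBMA and 0.0234 (0.00757 to 0.0549) in CBMD. Oas1g, an oligoadenylate synthetase, gave 465, 4 and 1 UMIs (CBMA) and 303, 0 and 1 UMIs (CBMD), and its ratios were 0.0089 (0.000225 to 0.0498) and 0.00995 (0.000251 to 0.0558). Ifi44 gave 310, 1 and 2 UMIs (CBMA) and 149, 0 and 1 UMIs (CBMD), with ratios of 0.0267 (0.00322 to 0.0972) and 0.0202 (0.000509 to 0.115). Reads of such families can be split between near-identical copies, so that the single genes are less certain than the group. Ifit3, which binds foreign RNA, gave 291, 3 and 0 UMIs (CBMA) and 178, 2 and 0 UMIs (CBMD). It was at least 23.4-fold lower at 18m in CBMA and at least 19.7-fold in CBMD, counting the 18m libraries at the 3 UMIs that a count of 0 allows. Ifit1 was at least 15.7-fold lower in CBMD by the same rule, and in CBMA, where it held 4 UMIs at 18m, its ratio was 0.0561 (0.0152 to 0.145).

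Many of these genes carry the interferon-stimulated response element (ISRE), through which type I interferons act. The promoters of 3 of the genes described above are shown, chosen because they hold a match. They cover 250 bases before the start from RefSeq on GRCm38.p6, 5′ to 3′ in the direction of transcription. Matches to GAAA, any 2 bases and GAAA on either strand are in capitals.
Isg15, chr4:156200819-156201068, minus strand: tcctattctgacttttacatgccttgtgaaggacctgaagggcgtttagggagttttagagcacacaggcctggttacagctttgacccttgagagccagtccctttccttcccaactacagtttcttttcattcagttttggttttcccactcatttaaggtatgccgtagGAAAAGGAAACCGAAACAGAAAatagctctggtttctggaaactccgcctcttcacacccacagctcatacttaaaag
Oas1g, chr5:120887614-120887863, minus strand: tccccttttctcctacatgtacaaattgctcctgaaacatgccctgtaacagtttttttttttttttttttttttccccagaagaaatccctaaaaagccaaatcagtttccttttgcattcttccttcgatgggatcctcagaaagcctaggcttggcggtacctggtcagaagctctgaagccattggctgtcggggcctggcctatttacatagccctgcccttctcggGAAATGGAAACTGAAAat
Ifi213, chr1:173599273-173599522, minus strand: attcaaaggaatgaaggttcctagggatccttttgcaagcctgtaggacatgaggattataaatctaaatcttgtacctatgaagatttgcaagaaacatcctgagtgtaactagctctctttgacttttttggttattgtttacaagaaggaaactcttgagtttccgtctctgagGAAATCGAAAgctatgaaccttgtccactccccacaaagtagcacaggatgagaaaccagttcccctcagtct
Over windows from 250 bases before to 50 after the start, 31 of the 57 list promoters found held this spaced pair of GAAA on either strand (54.4%), against 3.49% of all 27025 promoters. Split by the motif, 24 of 28 of the measured genes with it were lower at 18m in CBMA and 17 of 25 of those without. In CBMD these were 23 of 27 and 15 of 25. The medians were -1.30 with it and -1.08 without it in CBMA, and -1.46 and -1.14 in CBMD, so genes of the list without these letters were lower as well.

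Class I antigen presentation genes, which interferons also raise, were lower in smaller steps. Of 23 measured, 12 were lower and 1 higher in CBMA, with a median of -0.63, and 11 and 1 of 23 in CBMD, with a median of -0.57. Psmb9, a catalytic subunit of the immunoproteasome, stood at 342, 200.1 and 168 CPM (CBMA) and 296, 169.8 and 148 CPM (CBMD), with ratios of 0.49 (0.449 to 0.533) and 0.500 (0.457 to 0.546). H2-T23, a nonclassical class I heavy chain, stood at 223, 174 and 127 CPM (CBMA) and 245, 128 and 97.5 CPM (CBMD), with ratios of 0.568 (0.513 to 0.626) and 0.397 (0.356 to 0.442). Fcgr1, the high-affinity IgG receptor, was a surface receptor that was lower in both sites, at 123, 18.4 and 28.8 CPM (CBMA) and 89.5, 7.85 and 17.7 CPM (CBMD), with ratios of 0.235 (0.191 to 0.287) and 0.198 (0.153 to 0.252).

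**Figure D4:**
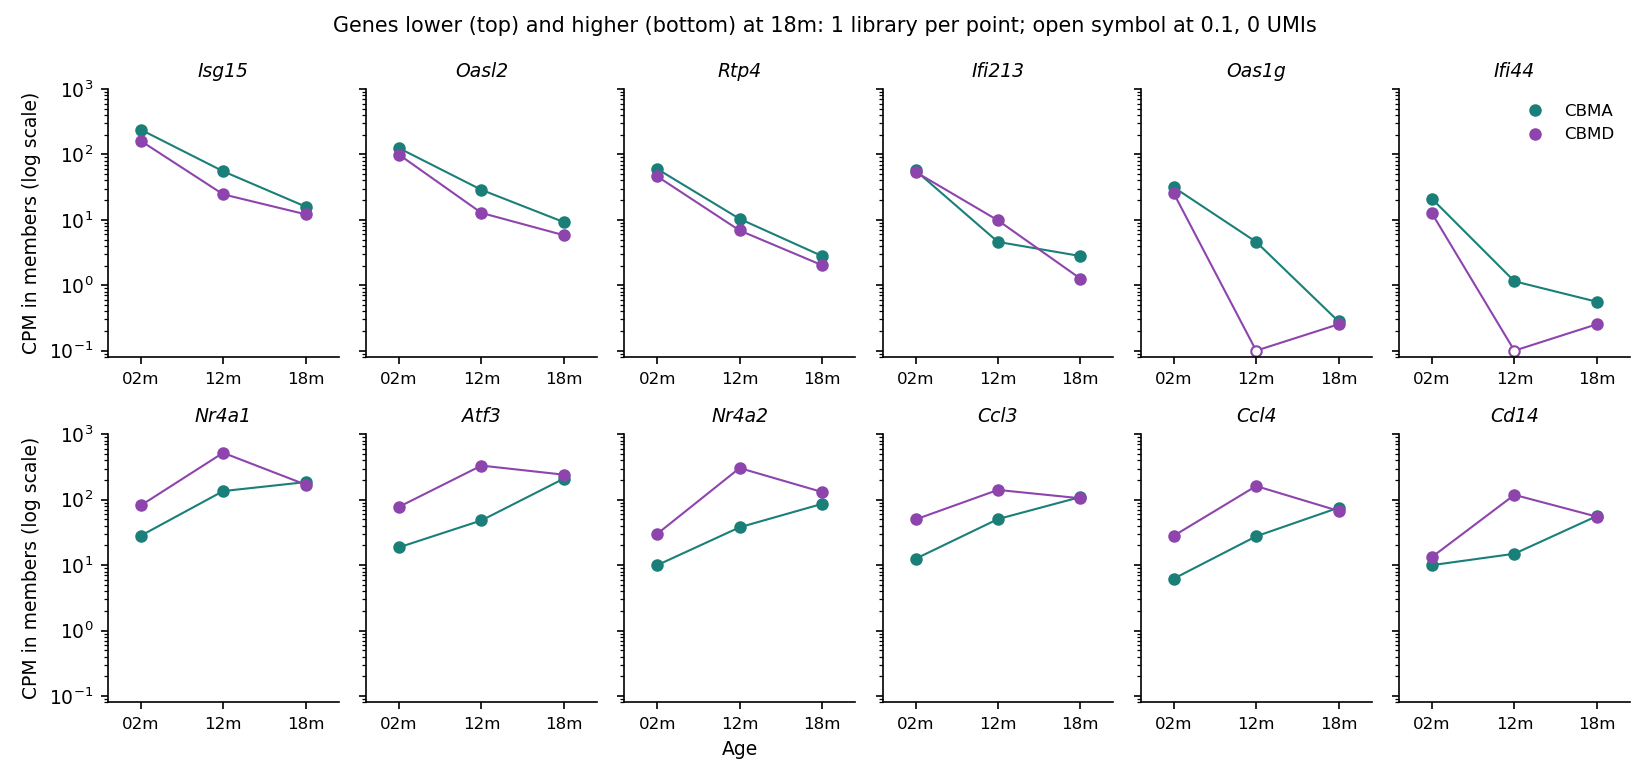
Levels of named genes in the summed profile of proliferating classical monocytes (CPM on a log axis) by age, for CBMA and CBMD, 1 library per point, all cells of 12m included. Open circles drawn at 0.1 are 0 UMIs. Isg15 falls from 239 to 15.9 CPM in CBMA, while Atf3 rises from 18.7 to 210.1 CPM.

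Immediate-early genes, transcription factors and their regulators that switch on within minutes of a stimulus, moved the other way. Of 28 measured in CBMA, 20 were higher at 18m and 1 lower, with a median of 1.00. Of 32 in CBMD, 12 were higher and 3 lower, with a median of 0.42. The non-cycling monocytes had medians of 0.90 and 0.58. Atf3, a stress-induced transcription factor, stood at 18.7, 48.3 and 210.1 CPM (CBMA) and 78, 333 and 242 CPM (CBMD). Its ratio of 18m to 02m was 11.2 (9.76 to 12.9) in CBMA and 3.1 (2.83 to 3.4) in CBMD, the smaller ratio against a 02m level that was higher in CBMD than in CBMA. Nr4a1, the nuclear receptor required for nonclassical monocytes, stood at 28.2, 136 and 186 CPM (CBMA) and 81.8, 522 and 171 CPM (CBMD), and Nr4a2, its relative, at 10.0, 38 and 86.4 CPM (CBMA) and 30.1, 305 and 131 CPM (CBMD). In CBMD the 12m levels of all 3 genes were above those of 18m, and in CBMA they lay between 02m and 18m. Without the Xist-bearing cells this held except for Nr4a1 in CBMA, which was then at 197 CPM at 12m.

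More inflammatory mediators were higher in CBMA than in CBMD. In CBMA 16 of 31 measured were higher and 2 lower, with a median of 0.76, whereas in CBMD 6 of 32 were higher and 4 lower, with a median of 0.14, close to the share and the median over all genes. Whether the sites differ was not tested. Ccl3, a chemokine that attracts monocytes and T cells, stood at 12.5, 50.6 and 109.9 CPM (CBMA) and 50.0, 141 and 105 CPM (CBMD), with ratios of 8.79 (7.36 to 10.5) and 2.11 (1.85 to 2.39). Ccl4, a near relative, stood at 6.22, 27.6 and 75.5 CPM (CBMA) and 28.1, 162 and 67.6 CPM (CBMD). Both chemokines started from a higher 02m level in CBMD and reached similar 18m levels in the sites. Osm, the cytokine oncostatin M, stood at 5.41, 25.3 and 40.3 CPM (CBMA) and 10.8, 88.4 and 35.7 CPM (CBMD), and Thbs1, the matrix protein thrombospondin 1, at 8.32, 19.6 and 50.4 CPM (CBMA) and 7.47, 99.2 and 33.9 CPM (CBMD). Both of these were higher at 12m and 18m than at 02m in each site, with 2 UMIs of Osm left at CBMA 12m without the Xist-bearing cells. Ccl5 was listed among the largest increases, but 1 cell held up to 92.7% of its UMIs in a library.

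Pattern recognition receptors were higher in 8 of 20 in CBMA and 4 of 22 in CBMD, with 0 and 1 lower, the CBMD share again close to that of all genes. Cd14, the co-receptor for lipopolysaccharide, stood at 10.0, 14.9 and 56.2 CPM (CBMA) and 13.3, 119 and 55.2 CPM (CBMD), with ratios of 5.62 (4.52 to 7.0) and 4.13 (3.35 to 5.1). Tlr2, the receptor for bacterial lipoproteins, stood at 21.6, 62.1 and 97.6 CPM (CBMA) and 36.2, 138 and 70.4 CPM (CBMD), with ratios of 4.53 (3.88 to 5.29) and 1.94 (1.67 to 2.27). Heat shock and unfolded-protein genes were higher in 13 of 27 and 7 of 27, or 7 and 4 once scaled to the median gene. Hsph1, a cochaperone of Hsp70, was among the 10 largest increases common to both sites, at 10.9, 16.1 and 43.9 CPM (CBMA) and 9.82, 32.4 and 50.1 CPM (CBMD), with ratios of 4.04 (3.22 to 5.06) and 5.1 (4.04 to 6.47).

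Few genes of the cell-cycle machinery were past the fold between 02m and 18m. Of 70 mitosis, spindle and kinetochore genes, 2 were higher and 3 lower in CBMA and 2 and 4 in CBMD, with medians of 0.03 and -0.03. By CPM these shares lie below the background of all genes in both directions. The choice required the same minimum of Mki67 and Top2a UMIs at every age, and its part in this likeness was not tested. Smc4, a core condensin subunit, stood at 381, 513 and 577 CPM (CBMA) and 416, 406 and 728 CPM (CBMD), and Ect2, which directs the cleavage furrow, at 27.1, 43.7 and 43.1 CPM (CBMA) and 32.7, 44.2 and 52.1 CPM (CBMD). Pttg1, the securin that holds back the separation of sister chromatids, went down instead, at 49.4, 27.6 and 24.6 CPM (CBMA) and 51.9, 23.6 and 21.5 CPM (CBMD). Its ratios were 0.498 (0.395 to 0.622) and 0.415 (0.327 to 0.521). Scaled to the median gene, 9 of the 70 were lower in CBMA and 9 in CBMD. Of all measured genes, 928 of 8284 and 1053 of 8655 were then lower, so the share lower in the list was no longer below the background.

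Replication genes were past the fold in few cases too. Of 40 origin licensing and fork genes, 1 was higher and 1 lower in CBMA (median -0.10), and 4 were higher and 0 lower in CBMD (median 0.24). Nucleotide synthesis genes gave 0 higher and 1 lower of 19 in CBMA (median -0.18) and 5 and 0 in CBMD (median 0.44). Pcna, the sliding clamp of the fork, stood at 324, 442 and 415 CPM (CBMA) and 262, 561 and 469 CPM (CBMD), and Rrm1, a subunit of ribonucleotide reductase, at 162, 258 and 203 CPM (CBMA) and 147, 205 and 241 CPM (CBMD). Counting in each cell whether mitosis-list UMIs exceeded replication-list UMIs, each relative to its mean, gave 59.2% (56.2 to 62.1), 45.6% (34.3 to 57.2) and 55.1% (48.6 to 61.4) for CBMA, against 63.8% (60.5 to 67.1), 44.7% (33.3 to 56.6) and 53.8% (47.7 to 59.8) in CBMD. The balance is a range and no cell type: 287 of the 2595 cells lay near the dividing value. DNA damage response genes were higher in 3 and 5 of 27 in CBMA and CBMD, and none was lower in either comparison. CDK inhibitors and p53 targets were higher in 9 of 20 and lower in 1 in CBMA, against 3 and 5 of 21 in CBMD. Bbc3, the proapoptotic p53 target Puma, stood at 9.8, 20.7 and 27.1 CPM (CBMA) and 14.4, 47.1 and 29.4 CPM (CBMD), higher in both sites.

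Replication-dependent histones, whose messages are made in S phase and end in a stem-loop in place of a poly(A) tail, were lower at 18m although the replication genes were not. Summed, they stood at 14448, 8840.0 and 8689 CPM (CBMA) and 14819, 6051 and 8508 CPM (CBMD). Of 54 measured, 38 were lower and 0 higher in CBMA, with a median of -1.25, and 38 and 0 of 54 in CBMD, with a median of -1.18. Hist2h4, a core histone H4, stood at 53.2, 13.8 and 15.9 CPM (CBMA) and 67.2, 11.8 and 12.2 CPM (CBMD), with ratios of 0.300 (0.225 to 0.392) and 0.181 (0.132 to 0.242). Hist1h2ac, a core histone H2A, stood at 236, 107 and 35.8 CPM (CBMA) and 218, 38.3 and 28.4 CPM (CBMD), with ratios of 0.152 (0.126 to 0.181) and 0.13 (0.106 to 0.157). Hist1h2ab, another H2A gene, did not follow: it stood at 317, 180.5 and 385 CPM (CBMA) and 283, 152 and 399.7 CPM (CBMD), with its 18m levels above those of 02m. The summed level, which the histone genes of high level dominate, fell less than the median gene of the list. Near-identical histone copies share reads, so the list is firmer than its members.

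The histone fall was larger still in non-cycling monocytes, where the medians were -2.84 in CBMA and -2.44 in CBMD. Summed over the list, the proliferating cells held 4.34, 10.9 and 21.9 (CBMA) and 5.26, 8.4 and 21.1 (CBMD) times the non-cycling level, so the contrast between dividing and resting cells was widest at 18m. Per cell the list took a median of 1.29% of UMIs at CBMA 02m, with quartiles of 0.45% and 2.23%, and 0.361% at CBMA 18m, with quartiles of 0.0592% and 1.52%. In CBMD these were 1.07% (0.381% and 2.31%) and 0.507% (0.0746% and 1.37%). The cells at 18m thus ran from nearly no histone RNA to shares within the 02m range.

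Rn7sk, the noncoding 7SK RNA that restrains transcription elongation and has no poly(A) tail, moved in the same libraries. It stood at 1709, 197 and 85.6 CPM (CBMA) and 1755, 102 and 25.1 CPM (CBMD), with ratios of 0.0501 (0.0446 to 0.0561) and 0.0143 (0.0116 to 0.0174), and was among the 10 largest decreases of each site. In the non-cycling monocytes its log2 ratios were -4.41 and -5.39. Both kinds of RNA that lack a poly(A) tail were thus lower at 12m and 18m in dividing and resting monocytes alike. Each age was 1 preparation per site, so preparation and age cannot be told apart.

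**Figure D5:**
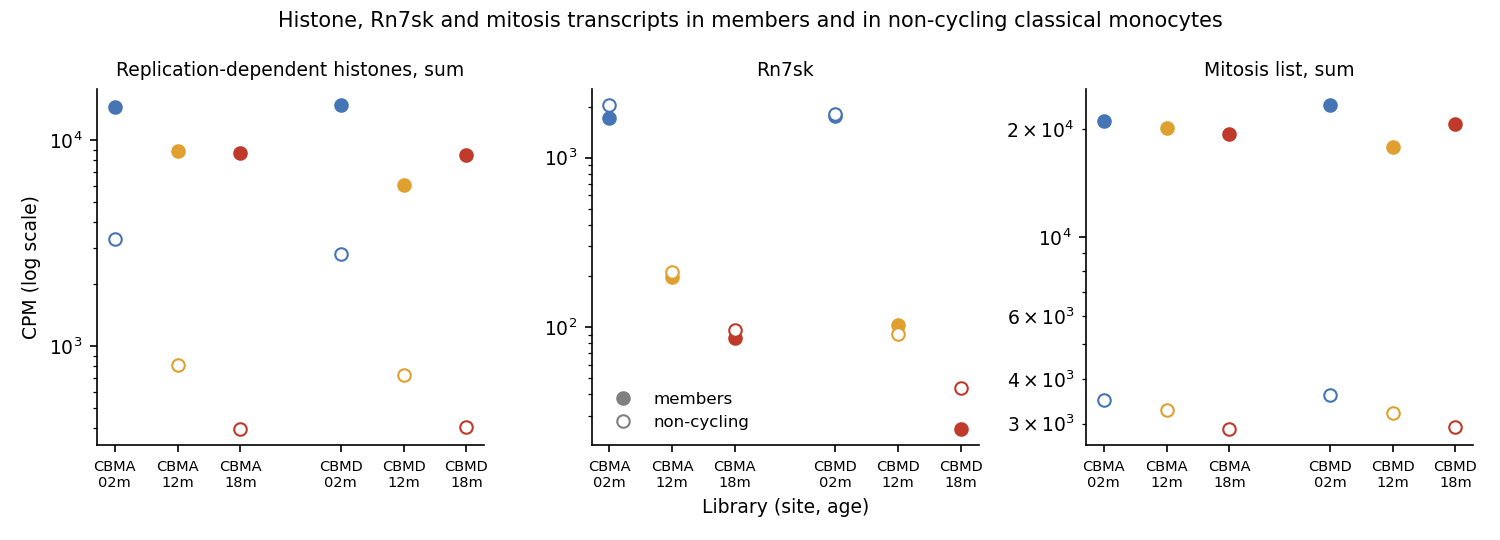
Summed level in CPM (log axes) of the replication-dependent histones (left), of Rn7sk (middle) and of the mitosis list (right) in proliferating (filled circles, members) and non-cycling classical monocytes (open circles) of each library. Histones fall further in the non-cycling cells, from 3329 to 397 CPM in CBMA, and Rn7sk falls in both. The mitosis list stays near its 02m level, in cells chosen by their Mki67 and Top2a UMIs.

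Nuclear genes of oxidative phosphorylation were somewhat lower relative to most genes, and those of translation less clearly so. Over all genes 6.25% were lower in CBMA and 7.28% in CBMD. Of 76 nuclear genes of oxidative phosphorylation, 16 were lower in CBMA and 15 in CBMD and none was higher, with medians of -0.44 and -0.37. Scaled to the median gene, 41 and 33 were lower. Cox5b, a subunit of cytochrome c oxidase, stood at 809, 530.1 and 470.2 CPM (CBMA) and 799.9, 504 and 432 CPM (CBMD), and Ndufa12, of complex I, at 85.5, 58.6 and 42.5 CPM (CBMA) and 66.2, 50.1 and 31.1 CPM (CBMD). Cytosolic ribosomal proteins were lower in 7 and 8 of 77, with 1 higher in CBMD, close to the shares over all genes. After scaling 15 and 27 were lower, beside 928 of 8284 and 1053 of 8655 of all measured genes. Ribosome biogenesis genes went the other way, higher in 7 and 11 of 26 and lower in none. Gnl3, the nucleolar protein nucleostemin, stood at 23.3, 38 and 43.6 CPM (CBMA) and 32.1, 71.7 and 55.4 CPM (CBMD). Proteasome genes were lower in 5 and 3 of 31, the CBMD share near that of all genes.

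The protein-coding genes of the mitochondrial genome did not move together. Of 12 measured in CBMA 2 were higher and 2 lower, and of 13 in CBMD 6 and 2. mt-Nd3, a subunit of complex I, stood at 176, 722 and 522 CPM (CBMA) and 81.7, 573 and 659 CPM (CBMD), with ratios of 2.96 (2.79 to 3.14) and 8.06 (7.49 to 8.69). mt-Atp8, a subunit of ATP synthase, stood at 424, 170.2 and 238 CPM (CBMA) and 457, 276 and 258 CPM (CBMD), lower at 12m and 18m than at 02m. Per cell the protein-coding list took a median of 0.841%, 1.31% and 0.98% (CBMA) and 0.649%, 1.08% and 1.19% (CBMD) of UMIs. This orders the ages otherwise than the share of all mitochondrial transcripts, which was lowest at 12m in each site.

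Monocyte identity genes were read against the shares over all genes, 18.0% higher and 6.25% lower in CBMA and 16.5% and 7.28% in CBMD. Surface and lineage receptors were higher in 12 of 35 and lower in 3 in CBMA, and higher in 6 and lower in 2 of 35 in CBMD, the latter near the share over all genes. Monocyte transcription factors were higher in 9 of 26 and 6 of 27 and lower in 1 and 2. Klf6, a zinc-finger factor, stood at 132, 235 and 251 CPM (CBMA) and 153, 288 and 327 CPM (CBMD), with ratios of 1.9 (1.75 to 2.06) and 2.14 (1.99 to 2.3).

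Class II antigen presentation and dendritic-cell-like genes were higher in 7 of 16 in CBMA and 6 of 14 in CBMD, with no member lower, and medians of 0.36 and 0.42 that were below the 1.05 and 0.76 of the non-cycling cells. Cd86, a costimulatory ligand for T cells, stood at 20.8, 29.9 and 31.3 CPM (CBMA) and 21.9, 66.8 and 41.3 CPM (CBMD). Azurophil granule and progenitor genes were lower in 6 and higher in 2 of 16 in CBMA, and lower in 3 and higher in 4 of 17 in CBMD. Prtn3, the granule protease proteinase 3, stood at 822, 455 and 394 CPM (CBMA) and 559.6, 302 and 353 CPM (CBMD), with ratios of 0.48 (0.454 to 0.507) and 0.63 (0.594 to 0.668). Plac8, a gene of myeloid cells that interferons raise, stood at 2881, 1401 and 1282 CPM (CBMA) and 2580, 1327 and 1098 CPM (CBMD), with ratios of 0.445 (0.431 to 0.459) and 0.425 (0.412 to 0.439). The list of alarmins and other S100 genes, which holds genes of the choice, was lower in 2 and 2 of 14 and higher in none.

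Metabolic, phagocytic and granule lists were also read against the shares over all genes. These were 18.0% higher and 6.25% lower in CBMA, and 16.5% and 7.28% in CBMD. Some list shares lay above them and others below. Glycolysis genes had 4 higher and 0 lower of 19 in CBMA and 1 and 0 of 19 in CBMD. Cholesterol and fatty acid synthesis genes had 2 higher and 3 lower of 20 in CBMA and 2 and 5 of 21 in CBMD. Oxidant handling genes had 3 higher and 0 lower of 26 in CBMA and 1 and 2 of 27 in CBMD. Phagocytosis, lysosome and scavenger genes had 3 higher and 0 lower of 26 in CBMA and 3 and 2 of 27 in CBMD. Neutrophil granule and late neutrophil genes had 3 higher and 3 lower of 18 in CBMA and 1 and 3 of 18 in CBMD. G1 cyclin, E2F and CDK4/6 genes had 4 higher and 2 lower of 21 in CBMA and 6 and 0 of 20 in CBMD. Scd2, a desaturase that makes monounsaturated fatty acids, stood at 32.6, 28.8 and 13.7 CPM (CBMA) and 26.7, 42.2 and 14.9 CPM (CBMD), with ratios of 0.42 (0.306 to 0.564) and 0.559 (0.416 to 0.74). C3, the central complement component, stood at 425, 719.9 and 747 CPM (CBMA) and 428, 723 and 719.6 CPM (CBMD), higher at 12m and 18m in each site.

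Among all measured genes, those with the largest increases common to both sites included members of the lists above (Nr4a2, Thbs1, Cd14 and Hsph1) and others outside them. Dlg4, a scaffold protein known from synapses, stood at 6.49, 12.7 and 44.2 CPM (CBMA) and 20.7, 73.6 and 109 CPM (CBMD), with ratios of 6.81 (5.25 to 8.87) and 5.27 (4.5 to 6.19). Ncam1, a neural cell adhesion molecule, stood at 9.19, 75.9 and 36.9 CPM (CBMA) and 11.6, 56 and 51.6 CPM (CBMD), with ratios of 4.02 (3.14 to 5.14) and 4.46 (3.57 to 5.57). Gk5, a glycerol kinase family member, stood at 2.98, 2.3 and 21.8 CPM (CBMA) and 5.37, 18.6 and 25.6 CPM (CBMD). Igkc and Ighm, antibody chains, were also in this group. Without the members that drew 1% or more of their UMIs from the B and plasma cell list, the log2 ratio of Ighm was -0.07 in CBMA and 0.29 in CBMD, against 1.90 and 1.78 with them. That of Igkc was 2.15 and 4.87, against 4.20 and 3.29.

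At 12m, read against 02m, the profile of the proliferating monocytes had the main groups of 18m, on 79 and 76 cells. In CBMA 17.7% of 4148 measured genes were higher and 8.75% lower, and in CBMD 12.6% and 9.88% of 4737. Scaled to the median gene, 466 were higher and 549 lower in CBMA (45.9% higher, against 67% by CPM). Interferon-stimulated genes were lower in 35 of 48 and 44 of 51, with medians of -0.84 and -1.41, which without the Xist-bearing cells of 12m were -1.34 and -1.83. Histones were lower in 35 of 37 and 39 of 40, with medians of -1.16 and -1.55, and -1.39 and -1.06 without those cells. Both groups were thus lower at 12m whether or not the Xist-bearing cells were counted.

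Immediate-early genes were higher at 12m in 13 of 21 and 12 of 25, with medians of 0.74 and 0.55 that were 0.39 and 0.36 without the Xist-bearing cells. Protein-coding mitochondrial genes were higher in 6 and 6 of 9, with medians of 0.82 and 0.74, or 0.52 and 0.53 without those cells. The mitosis list differed between the sites, which was not tested: 22 of 68 were lower in CBMD (median -0.36) and 3 of 66 in CBMA (median 0.09). Without the Xist-bearing cells the medians were -0.19 and -0.21 and lay close together.

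From 12m to 18m fewer genes were past the fold. In CBMA 3.97% of 4588 measured genes were higher at 18m and 4.77% lower, and in CBMD 5.95% and 4.73% of 5140. Histones were higher at 18m in 10 of 28 and 16 of 29, with medians of 0.46 and 0.61, and of 0.62 and 0.74 without the Xist-bearing cells. Interferon-stimulated genes were lower in 6 of 30 in CBMA and 1 of 30 in CBMD, with 0 and 2 higher, and medians of 0.05 and -0.04 without those cells. Inflammatory mediators were higher in 9 of 25 and lower in 2 in CBMA, but higher in 0 and lower in 9 of 26 in CBMD. Their medians were 0.45 and -0.34, and 0.23 and -0.06 without the Xist-bearing cells. Mitosis genes were higher in 18 of 67 in CBMD and 1 of 65 in CBMA, with medians of 0.33 and -0.07, or 0.22 and 0.19 without the Xist-bearing cells.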

How the data were processed

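Single-cell RNA-seq of 6 libraries (CBMA and CBMD at 2, 12 and 18 months) was analysed. The authors made the files with bcl2fastq and Cell Ranger on GRCm38, per the submitters' processing notes, and deposited the raw UMI count of every gene in each of 43420 barcodes without normalization. Groups came from the sample titles. Summed member profiles held 869572 to 14791602 UMIs, which sets the precision of each library.

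Cells were chosen by the limits and marker thresholds given above, and UMIs of members were summed per library and scaled to 1000000 UMIs (CPM). A gene was measured in a comparison where at least 30 UMIs were expected in each library at the pooled level, and past the fold at 1.5. With 1 library a condition no test was run. Intervals at 95% are exact (Clopper-Pearson, or Poisson conditional on the sum). Fold bounds for genes at 0 take 3 UMIs in that library. Doublets were scored with Scrublet in scanpy and ranked up to 0.8% per 1000 barcodes. The ratio script was tested on simulated data. Named genes are those of the marker thresholds, up to 4 members of each list with the largest change or the best known, the 10 largest and smallest ratios of 18m to 02m in each site and in both sites, and the 10 most above or below non-cycling cells. Results of a few genes are not reported here. The members and the lists were chosen with earlier results of these data known. Alternatives changed 1 choice at a time: each threshold, the gene limit, doublets, thinning to 2000 or 5000 UMIs, Xist-bearing cells at 12m, scaling, minimum UMIs and fold. Promoters were matched by symbol to RefSeq (GRCm38.p6), and 57 of 72 interferon-stimulated, 58 of 71 mitosis and 32 of 40 replication genes were found. Scripts ran in Python 3.11.15 with scanpy 1.11.5, matplotlib 3.10.9, pandas 2.3.3, numpy 2.4.6 and scipy 1.17.1.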

Additional observations from a re-analysis of the deposited data

Results flagged for a closer look

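Of the genes measured in both sites, 11 were at least 1.5-fold apart between 18m and 02m in opposite directions, 10 of them higher in CBMA and lower in CBMD. Each site is 1 library per age, so the difference between the sites was not tested. Immediate-early and stress-response genes led them, with the log2 ratio of 18m to 02m given for CBMA and then CBMD. Cxcl2, a neutrophil-attracting chemokine, was at 1.75 and -0.78. Ier3, an early-response survival gene, was at 1.26 and -1.04. Gadd45b, a stress-induced growth regulator, was at 0.84 and -0.72, and Ier5l at 0.67 and -0.92. Sgk1, a kinase induced by glucocorticoids, was at 0.90 and -0.64, Plk2, a polo-like kinase, at 0.76 and -0.71, and Traf1, an adaptor of the tumour necrosis factor receptors, at 0.62 and -1.25. In CBMA 02m these 7 genes were at lower levels than in CBMD 02m, for example 21 against 94.9 CPM for Cxcl2 and 50.4 against 190.3 CPM for Ier3, whereas their 18m levels lay closer together.

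Lfng, which modifies Notch receptors, was at 0.61 and -0.71, and Rnf103 at 0.73 and -0.87. Phgdh, the first enzyme of serine synthesis, was the 1 gene that went the other way, at -0.65 and 0.72. In addition, 629 cells that met every marker threshold lay above the limit of 5000 genes, outside the comparisons of gene levels, with a higher count of Mki67 and Top2a UMIs per cell than the kept cells in all 6 libraries.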

How the results depend on the processing

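Of the ratios of shares, 85 values under the alternatives stayed within the counting interval of the main value. The share of cells in CBMA, 18m to 02m, was 0.351 without the gene limit and 0.318 at 2000 UMIs. For 12m to 02m it was 0.170 with Mpo under 3 UMIs, 0.445 at 2000 UMIs and 0.113 without Xist-bearing cells, and for 18m to 12m 1.58, 0.713 and 2.41. In CBMD, 18m to 02m was 0.453 without the gene limit, 0.514 at 2000 UMIs and 0.481 at 5000 UMIs. For 12m to 02m it was 0.204 without the gene limit and 0.102 without Xist-bearing cells, and for 18m to 12m 3.83 without them. The cycling share of classical monocytes in CBMA, 18m to 02m, was 0.728 without the gene limit and 0.870 at 2000 UMIs. At 2000 UMIs 12m to 02m turned to 1.04 in CBMA, 18m to 02m turned to 1.03 in CBMD, and 12m to 02m was 0.628 in CBMD. Thinning leaves fewer cells above every threshold by construction.

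Counts of genes past the fold are given for CBMA 18m to 02m, 12m to 02m and 18m to 12m, then the same for CBMD. They were 2006, 1099, 401, 2059, 1066 and 549. A fold of 2 gave 500, 202, 80, 561, 305 and 124, a minimum of 100 expected UMIs 981, 289, 76, 986, 266 and 114, and members thinned to 5000 UMIs 1201, 392, 177, 1257, 365 and 195. A minimum of 10 gave 2379 and 1258 for the later pairs of CBMA and 3247, 2381 and 1420 in CBMD. Without Xist-bearing cells 304 and 138 remained to be counted in CBMA and 464 and 212 in CBMD, on fewer measured genes, and Mpo under 3 UMIs gave 717 for CBMA 12m to 02m. Of the medians of gene lists, 2017 were counted as unchanged and 81 as moved, by a range not given here. None was counted as turned, but changes of sign occurred among those that moved. Without Xist-bearing cells the CBMA mitosis median was -0.21 for 12m to 02m and 0.19 for 18m to 12m. Each had the opposite sign with those cells counted.

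Single genes turned in 8 cases on the log2 scale. With at least 4 cycling UMIs, Apoe went to -0.55 for CBMA 12m to 02m, and Ccl5 and Igkc to 4.48 and 1.14 for CBMA 18m to 12m. Without Xist-bearing cells Igkc and Ncam1 went to 0.89 and 0.29 for CBMA 18m to 12m and Ighm to 0.91 for CBMD 18m to 12m. Thinning took Ccl5 to 0.12 for CBMD 18m to 12m. Without members rich in B and plasma cell UMIs, an alternative chosen after seeing the data like that without the highest cell of each gene, Ighm went to -0.075 for CBMA 18m to 02m. The causes were not tested.

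Leaving out a library was not possible, as each condition is 1 library. No paired analysis was possible because the labels give each condition replicate 1 alone, so groups share 1 replicate number. A fit of age with site as a term over the 6 libraries was not run, since the sites are different conditions and whether they share mice is not stated. Depth limits the 12m values most, and genes with few UMIs there were not measured.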

Other observations

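Of the 2595 proliferating monocytes, 18 held both an Xist UMI and a UMI of a Y-linked gene. At CBMA 12m 1 cell held 83.6% of the UMIs of H2-Aa, a class II antigen presentation gene.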
